A study of Mus musculus with 4 samples.

Results

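Cytoplasmic ribosomal protein genes were examined in intestinal crypts of wild-type (WT) and Vil-CREPTKO mice. Members were the protein-coding genes of GENCODE release M21 whose symbol is Rpl or Rps followed by a number, with at most 1 letter X, A or L after it in either case, together with Rpsa, Rplp0, Rplp1, Rplp2 and Fau. The S6 kinase genes, Rps27l and pseudogenes were left out. This rule gave 80 of the 53845 genes in the count table, of which 46 encode proteins of the large (60S) subunit, 31 proteins of the small (40S) subunit and 3 the stalk of the large subunit. Read with its capitals as written, the same rule gave 68 members and dropped symbols ending in a small a or x, such as Rpl7a, Rpl35a and Rps27a.

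The libraries were made from total RNA of crypts of C57BL/6 mice, which were released from the intestine with EDTA. There were 2 WT and 2 Vil-CREPTKO libraries, and in the latter a Cre transgene under the villin promoter deletes CREPT, the gene Rprd1b, from the intestinal epithelium of CREPT fl/fl mice, so that any cell of another type in the preparation keeps it. The labels call the controls wild type. The study's supplement lists litters from Villin-cre; CREPT fl/fl crossed to CREPT fl/fl mice, in which a WT pup carries floxed CREPT alleles and no Cre, and the labels do not tie the sequenced mice to these litters. CREPT is a protein that binds the tail of RNA polymerase II. The comparison asks which transcripts differ in uninjured crypts when CREPT is removed.

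Ribosomal proteins wrap the ribosomal RNAs of the 2 subunits, and a ribosome holds 1 copy of nearly every one of them. The small subunit reads the mRNA, the large subunit joins the amino acids, and the stalk (Rplp0, Rplp1 and Rplp2) recruits the elongation factors. Their mRNAs are short and among the most abundant of growing cells such as those of the crypt. Many of them start with a cytidine followed by a run of pyrimidines, the 5′ terminal oligopyrimidine (TOP) motif, through which their translation follows the activity of mTOR. Mammalian genomes also hold many processed pseudogenes of these genes, which are copies of the spliced mRNA.

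The sequences around the annotated starts show this feature in a part of the member entries, more often than in those of other genes. RefSeq promoter entries on GRCm38.p6 were matched by symbol for 60 of the 80 members (71 entries, since a gene can have more than 1). The first base was a C followed by at least 4 further pyrimidines in 14 of the 71 member entries (19.7%) and in 2.47% of the 32780 entries of other genes. The letters CTTTC, searched on the transcribed strand from 20 bases before to 20 bases after the start, were found in 28.2% of the member entries and in 5.45% of the others. Such matches describe the annotated sequence, and an annotated start can lie a few bases from the start that cells use. The named members with such a start are printed below because they show the motif, with 10 bases before the start, the pyrimidine run from the first base in capitals, and 30 bases in all.
Fau: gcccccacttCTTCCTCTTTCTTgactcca
Rpl28: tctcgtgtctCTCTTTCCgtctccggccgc
Rpl35a: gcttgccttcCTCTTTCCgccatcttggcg
Rpl38: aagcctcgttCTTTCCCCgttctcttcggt
Rplp2: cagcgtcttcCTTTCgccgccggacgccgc
Rps15a: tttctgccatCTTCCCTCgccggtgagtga
Rps21: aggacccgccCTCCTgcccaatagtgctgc
Rps27: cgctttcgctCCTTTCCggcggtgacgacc
Rps6: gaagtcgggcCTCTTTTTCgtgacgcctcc
They lie on GRCm38.p6 at chr19:6057937-6057966 (Fau), chr7:4792955-4792984 (Rpl28), chr16:33056472-33056501 (Rpl35a), chr11:114668570-114668599 (Rpl38), chr7:141447641-141447670 (Rplp2), chr7:118116128-118116157 (Rps15a, minus strand), chr2:180257369-180257398 (Rps21), chr3:90213629-90213658 (Rps27, minus strand) and chr4:86857348-86857377 (Rps6, minus strand). Among those printed, the run from the first base was longest in Fau, at 13 pyrimidines, and shortest in Rplp2 and Rps21, at 5. Fau, which encodes Rps30 as a fusion with a ubiquitin-like protein, had 608 and 596 CPM (counts of each 1000000, after scaling) in WT against 647 and 606, and its log2 fold change between the groups was 0.06 (SE 0.168).

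Library totals lay between 47241049 and 49369315 counts. Counts of Rprd1b were 3087 and 3030 with the gene intact against 1142 and 1424 with it deleted, a log2 fold change of -1.14 (SE 0.122, n = 2 a group, adjusted p = 0.0041 by edgeR's quasi-likelihood test). Replicate 2 of WT stood apart in sex-linked genes: it had 42463 counts of Xist against 13 to 26 in the other 3 libraries, and 0 counts of Ddx3y, Eif2s3y, Kdm5d and Uty against 1023 to 2600. The labels give no sex. Crypt markers (9 of 9 in the table, none at 0) summed to 11040 to 13890 counts of each 1000000 in the 4 libraries. Summed markers of villus enterocytes were 13390 and 16480 in WT against 21130 and 13930 in Vil-CREPTKO, and those of pancreas 8.32 and 5.04 against 20.2 and 11.5, so replicate 1 of Vil-CREPTKO was highest in both. Among the villus markers, Apoa4 (815 CPM there against 1181 in WT replicate 2) and Lct (1089 against 1228) were instead highest in WT replicate 2. The rest of that list were highest in Vil-CREPTKO replicate 1. Vil-CREPTKO replicate 1 was also highest in summed blood (61.1 against 12.3 to 30.3) and stroma (18.5 against 3.77 to 8.49) markers. It was highest in mitochondrial transcripts too (10.2% of counts against 6.75% to 7.62%). Immune cell markers were highest in WT replicate 1, at 276 against 152 to 182, and those of smooth muscle were under 1 throughout. The part of these differences in the results below was not tested. In bulk RNA, fewer cells of a type and less RNA per cell cannot be told apart.

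Of the 80 members, 77 passed the filter on low counts. The 3 others are restricted to testis or muscle in textbook descriptions: Rpl10l had 0 counts in all 4 libraries, which allows up to 0.0588 to 0.069 CPM (3 counts, for counting error only), Rpl39l had 8 counts in WT replicate 1 and 0 elsewhere, and Rpl3l had 8 and 4 counts in the controls against 6 and 1. Levels are given per kilobase of the principal transcript, as CPM per kb. The median member stood at 607 CPM per kb, 58 members lay between 100 and 1000, and 17 above. The top 5 were Rpl41, the shortest protein of the ribosome (3728), Rplp1 of the stalk (2536), Rps29 (2175), Rps27 (1660) and Rps14 (1641).

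**Figure D1:**
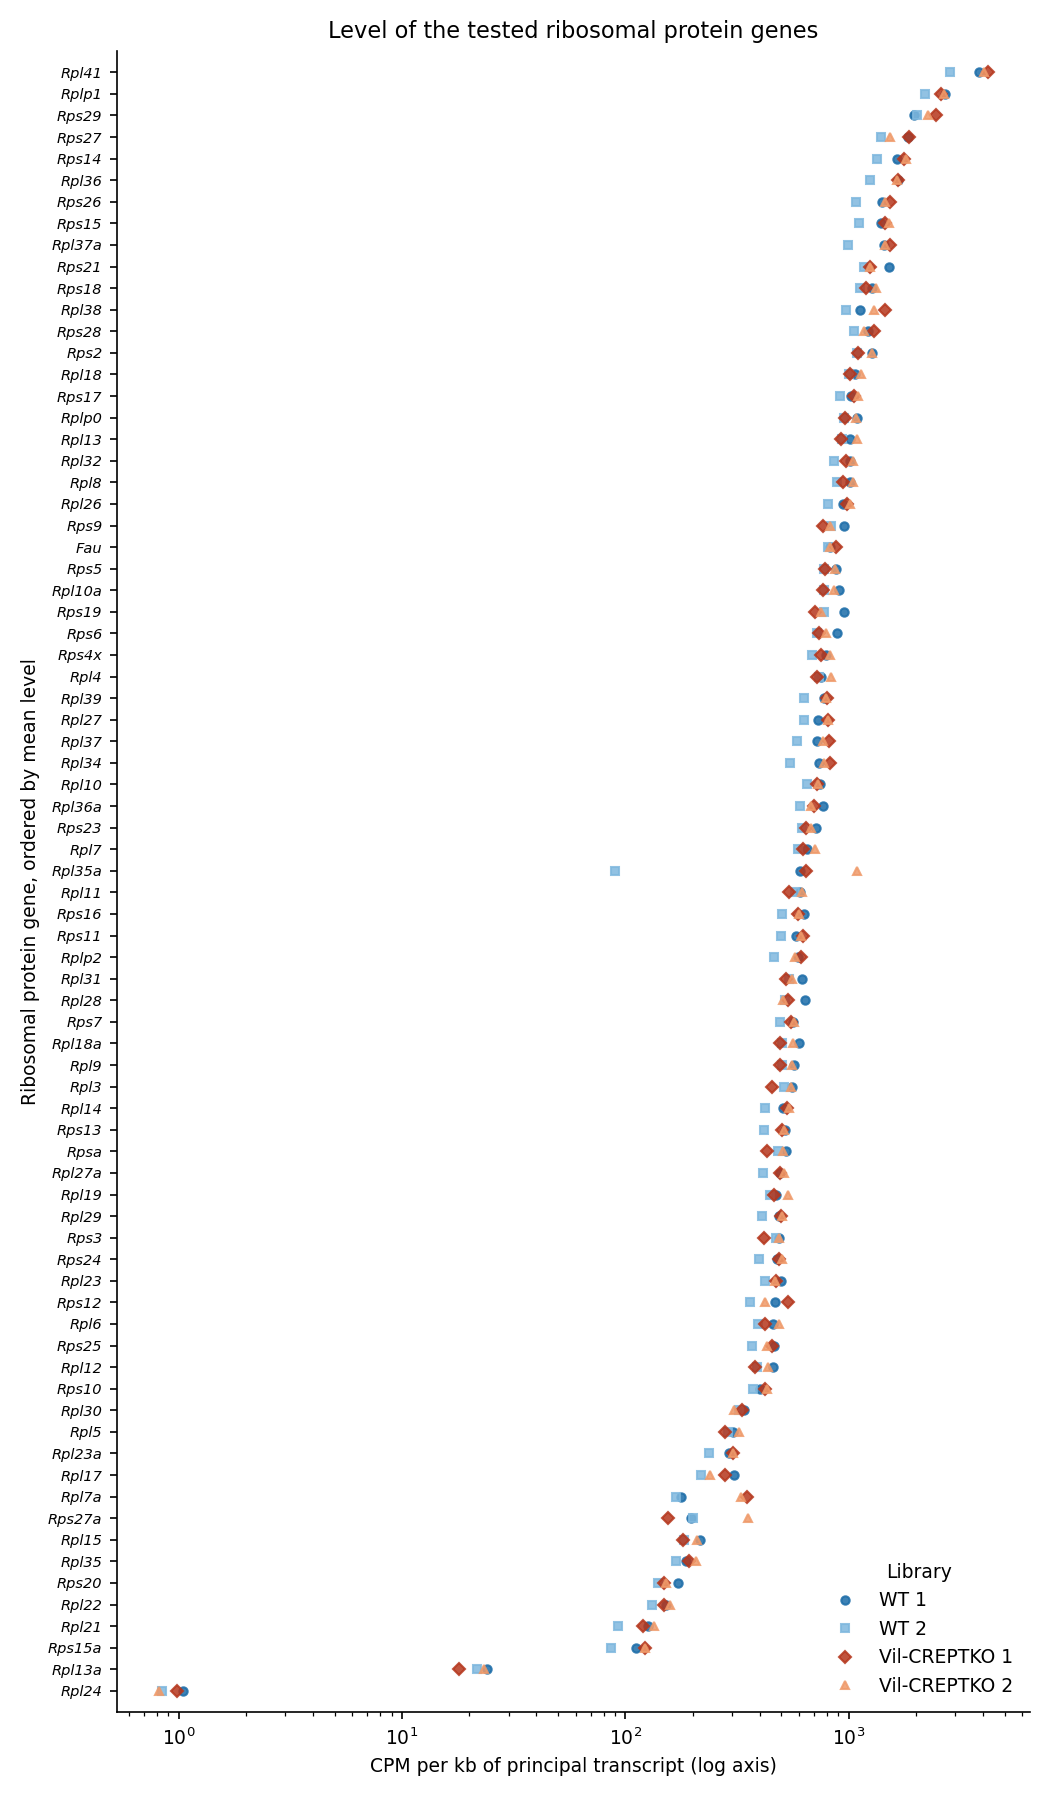
Level of 76 of the 77 tested ribosomal protein genes in the 4 libraries, as CPM per kb of the principal transcript on a log axis, ordered by the mean of the libraries. The points of a gene mostly lie close together, replicate 2 of WT is often the lowest, Rpl35a has 1 point far to the left, and Rpl13a and Rpl24 sit far below the rest.

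Some neighbours in this order were set apart beyond their spread and others were not. Rpl41 had 1670 and 1240 CPM in WT and 1843 and 1764 CPM in Vil-CREPTKO, and per kb all 4 of its libraries were above all 4 of Rplp1, which had 1354, 1093, 1286 and 1329 CPM in the same order. Rps27 (638 and 481 CPM in WT, 643 and 529 CPM in Vil-CREPTKO) and Rps14 (982 and 801 CPM, then 1057 and 1079 CPM) overlapped in CPM per kb and could not be ordered. At the other end stood Rpl13a and Rpl24, both proteins of the large subunit that every ribosome carries. Rpl13a had 1284, 1112, 820 and 1198 counts, a mean of 21.7 CPM per kb. Rpl24 had 36, 28, 29 and 27 counts, 0.92 CPM per kb. Of the principal transcript of Rpl24, 71.5% is covered by exons of Gm28037 on the same strand, and of that of Rpl13a 59.3% by Gm45713, and both of those rows held 0 counts in every library. These 2 rows are therefore uncertain as measures of their genes. Rps10, covered for 53.6% by a readthrough annotation with the neighbouring Nudt3, had 16217 to 18850 counts.

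Between the groups, 1 member passed the test at an adjusted p under 0.05. Rpl7a, a protein of the large subunit, had 162.5 and 153.8 CPM in the WT libraries and 320.7 and 302.1 CPM in the Vil-CREPTKO libraries. Both Vil-CREPTKO values were above both WT values, and the mean rose from 158 ± 6.14 to 311 ± 13.2 CPM (SD, n = 2 a group), which is 197% of the WT mean. Its log2 fold change was 0.98 (SE 0.142, adjusted p = 0.0105, edgeR). Among all 17504 genes tested, 0.423% were higher in Vil-CREPTKO at this threshold, and among the members 1 of 77. No member was lower by edgeR, against 2.29% of all genes, and none was also beyond a 2-fold change, against 1.64% of all genes. At an unadjusted p under 0.05, Rpl7a was likewise the single member, against 14.3% of all genes. By DESeq2 too, Rpl7a was the one member at an adjusted p under 0.05.

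Rpl7a lies on chromosome 2 at 26910764 to 26913318 of GRCm38 (plus strand, 8 exons), inside the surfeit locus. Its nearest tested coding neighbours on one side, Surf6 and Med22, had log2 fold changes of -0.10 (SE 0.152) and 0.09 (SE 0.119), and on the other side Surf1 and Surf2 had -0.19 (SE 0.124) and -0.66 (SE 0.216). None of these 4 passed the test. The table also holds 29 rows whose transcripts match the Rpl7a coding sequence at 95% identity or more over at least 80% of it. Those copies summed to 4293 and 3936 counts in the WT libraries against 3089 and 3781 in the others, beside 8296 and 7571 against 13940 and 14834 counts of Rpl7a itself. The copies thus amounted to 51.7% and 52.0% of the Rpl7a counts in WT and to 22.2% and 25.5% in Vil-CREPTKO. With the copies added to the gene, Rpl7a stood at 0.68 on the log2 scale (adjusted p = 0.0497, edgeR). A test whose null hypothesis is a change of up to 2-fold (glmTreat) did not call Rpl7a. It could not do so, since the estimate of 0.98 lies inside that range.

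Rpl35a, also of the large subunit, had the largest fold change among the members and the largest spread. Its WT libraries held 15427 and 2215 counts and its Vil-CREPTKO libraries 14062 and 26692, or 302 and 45 CPM against 324 and 544 CPM. The 2 Vil-CREPTKO libraries were above both WT libraries, but replicate 1 of each group differed little and replicate 2 of WT lay far below the rest. The log2 fold change was 1.32 with an SE of 0.672, and the adjusted p was 0.429 (edgeR). Without WT replicate 2 it was 0.52, without WT replicate 1 it was 3.27 with an adjusted p of 9.09e-06, and without any filter on low counts, at the same fold change, the adjusted p was 4.36e-05. The 14 near-identical copies of Rpl35a held 3615 and 4910 counts (WT) and 3267 and 1507 (Vil-CREPTKO). Set against the gene this was 23.4% and 222% for the controls, then 23.2% and 5.65% after deletion, so copies and gene moved in opposite directions in both libraries numbered 2. The sum of gene and copies was 19042, 7125, 17329 and 28199 counts in the order WT 1, WT 2, Vil-CREPTKO 1 and Vil-CREPTKO 2.

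The closeness of these copies can be seen in the coding sequences. Each pair below gives 30 bases of a member and of a copy with many counts at the same place, with the differing base in capitals, counted from the A of the start codon.
Rpl35a: gcttatgtgtataaGgcaaaaaacaataca
Gm10243: gcttatgtgtataaAgcaaaaaacaataca
Rpl7a: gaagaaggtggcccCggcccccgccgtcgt
Rpl7a-ps5: gaagaaggtggcccTggcccccgccgtcgt
Rpl24: acgggcggcgctacGccaggaccgacggga
Gm12254: acgggcggcgctacAccaggaccgacggga
G156A was the only substitution between the 333 coding bases of Rpl35a and Gm10243, a processed pseudogene on chromosome 6 (48523518 to 48523850) with 2658, 3420, 2395 and 1155 counts in the library order used above. Rpl7a-ps5, on chromosome 17 (57838430 to 57839221), had 9 substitutions and 6 gap positions in the aligned part of the Rpl7a coding sequence. C41T was the first substitution, and its counts were 1896, 1923, 1000 and 1804 for Rpl7a-ps5. Gm12254, on chromosome 11 (58508791 to 58509261), had 5 substitutions against Rpl24, G64A being the first. It held 487 and 565 counts in the controls, then 1019 and 1309 after deletion, far above those of Rpl24 itself. Another copy of Rpl24, Gm9385, had 545, 449, 532 and 671 counts. When copies were added to their gene, Rpl24 moved by 0.88 on the log2 scale (adjusted p = 0.0112, edgeR), whereas the row of Rpl24 alone stood at -0.07 (SE 0.498).

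**Figure D2:**
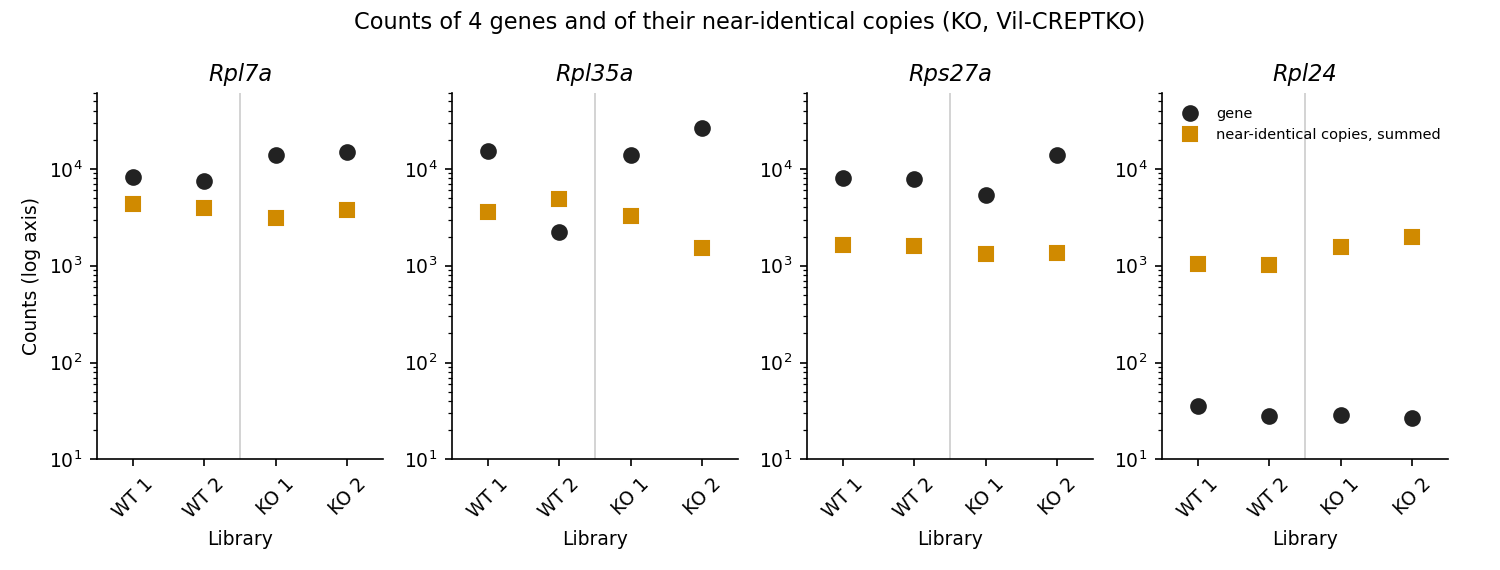
Counts of Rpl7a, Rpl35a, Rps27a and Rpl24 (circles) and the summed counts of their near-identical copies (squares) in the 4 libraries, on a log axis, with KO for Vil-CREPTKO. In these counts, before scaling, the gene is higher in both KO libraries for Rpl7a alone. Rpl35a falls below its copies in WT 2, and Rpl24 lies below its copies in every library.

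Copies of this kind were common. A total of 75 of the 80 members had at least 1 such row, 545 rows in all, 515 of them annotated as processed pseudogenes. Their counts amounted to 12.3%, 12.4%, 12.6% and 12% of those of the members in the 4 libraries, so the overall proportion was nearly the same in each. For 37 members the copies reached at least 10% of the member's own counts. For Rpl21 they came to 96.5%, with 11941, 8476, 9686 and 12187 counts in the gene and 10935, 10281, 9099 and 10475 in its 55 copies. Rps27 shares its whole coding sequence with Rps27rt, a single-exon gene annotated as protein-coding. Rps27 had 32556, 23692, 27959 and 25976 counts and Rps27rt 12168, 9735, 10024 and 15984, and the division of reads between them is uncertain.

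Rps27a, a ubiquitin fusion protein of the small subunit, had 156 and 158 CPM in WT against 123 and 282. The Vil-CREPTKO libraries lay on both sides of WT, and the log2 fold change of 0.36 (SE 0.314, adjusted p = 0.677, edgeR) turned to -0.35 without Vil-CREPTKO replicate 2 and was 0.84 (adjusted p = 0.0209) without Vil-CREPTKO replicate 1. Its 8 copies held 1641, 1591, 1327 and 1359 counts, a narrow range.

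The remaining members differed little between the groups. The log2 fold changes of the 77 had a median of 0.09, with quartiles of -0.03 and 0.19, beside a median of -0.01 over all genes tested, and 75 of them lay within 0.4 of 0. They were positive in 53 members and negative in 24, with a median SE of 0.178. The 40S members (31) had a median of 0.09, the tested 60S members (43) of 0.10 and the 3 stalk members of 0.10. Both Vil-CREPTKO libraries were above both WT libraries in 24 members and below them in 2 (Rps9 and Rps19), 33.8% of the members in all, against 45.1% of all genes tested whose groups did not overlap in either direction.

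**Figure D3:**
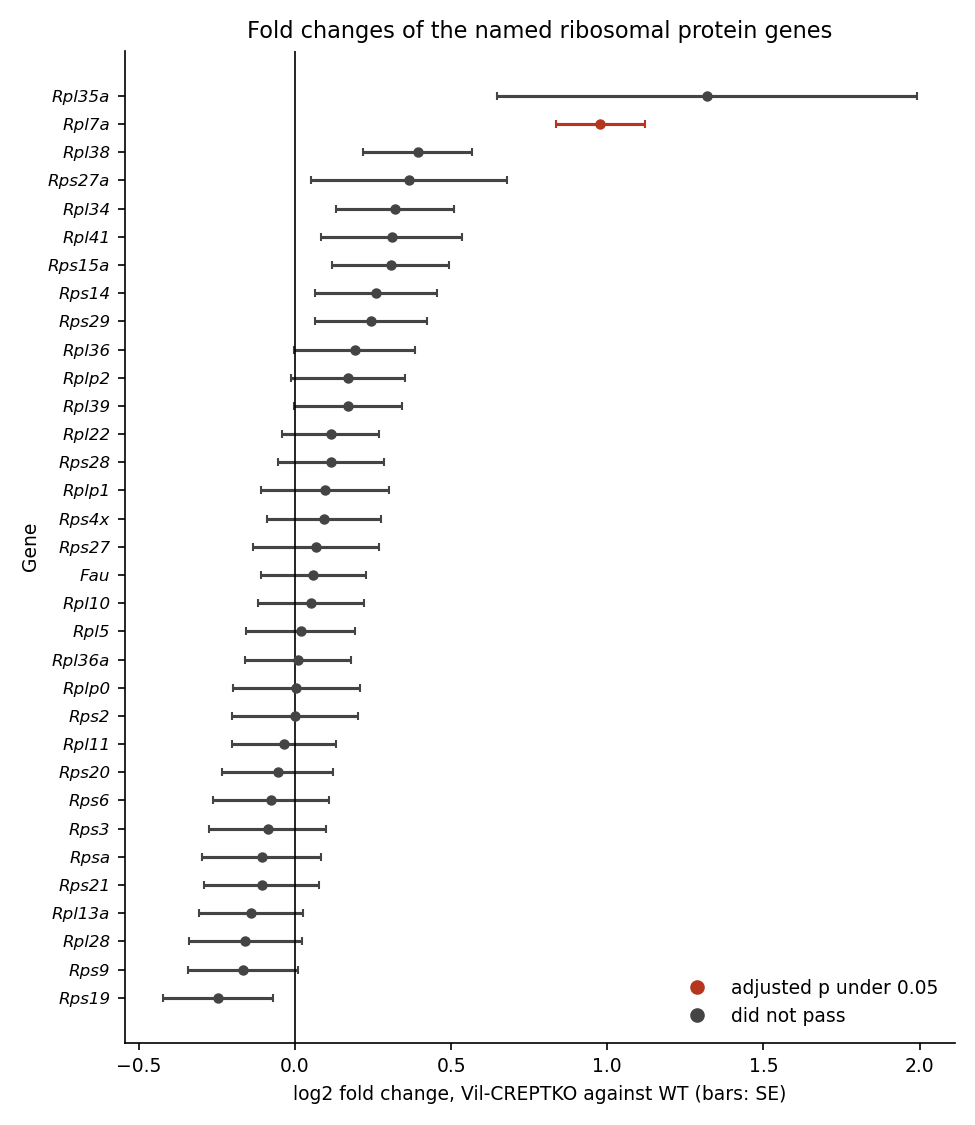
Log2 fold changes of the named ribosomal protein genes, Vil-CREPTKO against WT, with bars of 1 SE (edgeR, 2 libraries a group). Rpl7a (red) is the one gene that passed at an adjusted p under 0.05, Rpl35a has the widest bar, and most others lie within 1 SE of 0 or a little beyond.

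After Rpl35a and Rpl7a, the highest fold changes were those of Rpl38, Rps27a and Rpl34. Rpl38, a small protein of the 60S subunit, had 515 and 446 CPM in WT against 665 and 596. The groups did not overlap, and the log2 fold change was 0.39 (SE 0.175), but the adjusted p was 0.359 (edgeR). Rpl34 had 458 and 341 CPM against 512 and 486 CPM (0.32, SE 0.188). Here the difference between the 2 WT libraries exceeded that between WT replicate 1 and either Vil-CREPTKO library.
The lowest was Rps19, a small-subunit protein whose human gene is mutated in Diamond-Blackfan anaemia, with 603 and 489 CPM in WT against 445 and 476 (log2 fold change -0.25, SE 0.177, adjusted p = 0.609, edgeR). Rps9, at the mRNA entry of the small subunit, had 718 and 628 CPM against 578 and 621 CPM (-0.17, SE 0.175). Rpl28 and Rpl13a followed with -0.16 and -0.14. In both the libraries of the groups overlapped, and without Vil-CREPTKO replicate 1 Rpl13a stood at 0.03.

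By role, the stalk genes were level. Rplp0 had 1477 and 1291 CPM in WT against 1310 and 1466 (log2 fold change 0.0044, SE 0.204), and Rplp1 and Rplp2 stood at 0.10 and 0.17. Rpl5 and Rpl11, which bind Mdm2 with the 5S RNA when ribosome assembly fails, had 622 and 591 against 569 and 659 CPM, and 506 and 480 against 450 and 513 CPM. Their log2 fold changes were 0.018 (SE 0.174) and -0.036 (SE 0.166), and the groups overlapped in both. Rps6, the target of the S6 kinases, had 777 and 635 against 644 and 696 CPM (-0.08, SE 0.185). Rps3 and Rps2, neighbours at the entry of the mRNA channel, stood at -0.09 (SE 0.187) and -0.0010 (SE 0.202), and Rpsa, also known as the laminin receptor precursor, at -0.11 (SE 0.191). The sign of values this near 0 changed with the scaling or with 1 library left out for Rplp0, Rplp1, Rpl5, Rpl11, Rps2, Rps3, Rps6 and Rpsa.

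The 4 X-linked members were Rpl10, Rps4x, Rpl36a and Rpl39. Rps4x, the mouse gene for the only protein of the ribosome with a Y-linked partner in humans, had 772 and 669 CPM in WT against 731 and 806 (log2 fold change 0.09, SE 0.182). Rpl10 had 597 and 520 against 574 and 582 CPM, Rpl36a 370 and 292 against 339 and 328 CPM, and Rpl39 475 and 388 against 487 and 484 CPM. In each of them WT replicate 2, the library with Xist counts, was the lowest. Its median difference from WT replicate 1 over these 4 genes was -0.25 on the log2 scale, beside -0.23 over all 77 members.

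WT replicate 2 was the lowest of the 4 libraries in 55 of the 77 members, and 75 of the 77 were lower in it than in WT replicate 1. The median difference between the 2 WT libraries, -0.23, was larger in size than the median difference of either Vil-CREPTKO library from the WT mean, 0.07 for replicate 1 and 0.14 for replicate 2. Over all genes tested the median difference between the WT libraries was -0.0018. Without WT replicate 2 the median log2 fold change of the members was -0.0028, and without WT replicate 1 it was 0.20. The small shift of the members between the groups thus depended on which WT library was kept, and Vil-CREPTKO replicate 2 had the highest median of the 4 libraries. The members' share of all counts was 4.97% and 3.93% in WT (4.45 ± 0.735, SD, n = 2) and 4.12% and 4.79% in Vil-CREPTKO (4.45 ± 0.473). Both Vil-CREPTKO shares lay between the 2 WT shares. The 2 WT libraries also differed in Xist and the Y-linked genes, in which both Vil-CREPTKO libraries were like WT replicate 1. The part of this difference in the spread of the WT libraries was not tested.

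Short and longer members were then set side by side, split at the median principal transcript length of 799 nt. In the 39 short members the median log2 fold change was 0.12 (31 positive, 8 negative), and in the 38 longer ones 0.05 (22 positive, 16 negative), a difference of 0.07. In Vil-CREPTKO replicate 1 the medians against the WT mean were 0.13 and -0.0010, and in replicate 2 they were 0.17 and 0.10. Between the WT libraries the short members differed by -0.26 and the longer ones by -0.21. The gap of short minus longer members was thus 0.13 in replicate 1 of Vil-CREPTKO and 0.07 in replicate 2, beside -0.04 for WT replicate 2 against WT replicate 1 and -0.09 for Vil-CREPTKO replicate 2 against replicate 1.

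**Figure D4:**
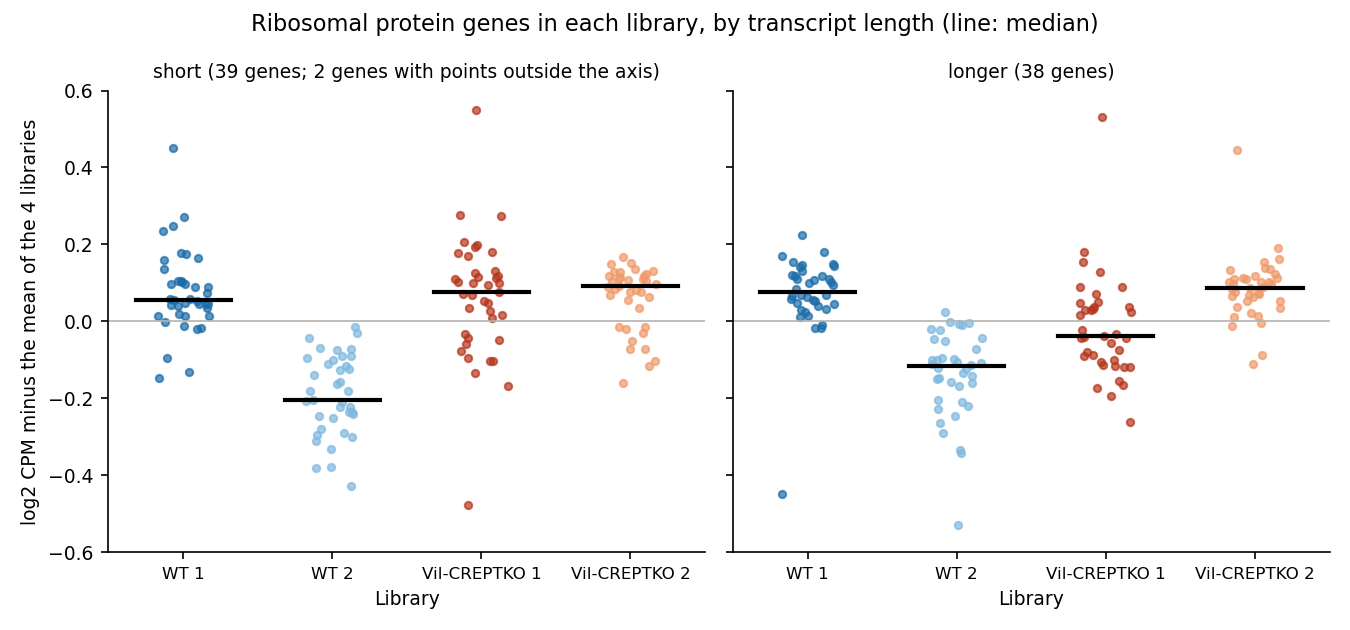
Log2 CPM of each ribosomal protein gene minus its mean over the 4 libraries, for the 39 short and the 38 longer members, with the median as a line. WT 2 has the lowest median in both panels, at -0.20 and -0.12, Vil-CREPTKO 1 is above 0 for short and below 0 for longer members, and some points of Rpl35a and Rps27a lie outside the axis.

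Split by the length of the coding sequence (median 453 nt with the members at the median counted as short), the medians were 0.16 and 0.03. For the 25 members with the shortest and the 25 with the longest transcripts they were 0.19 and 0.02. Across the 77 members, Spearman's rho between the difference and coding length was -0.57 for Vil-CREPTKO replicate 1 against the WT mean and -0.15 for replicate 2. It was 0.50 for WT replicate 2 against WT replicate 1 and 0.66 for Vil-CREPTKO replicate 2 against replicate 1. For the fold change between the groups it was -0.40, smaller in size than either value inside a group. These describe the same 77 genes in the same 4 libraries, and members are not replicates. GC content showed no such relation, with rho between -0.07 and 0.12.

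**Figure D5:**
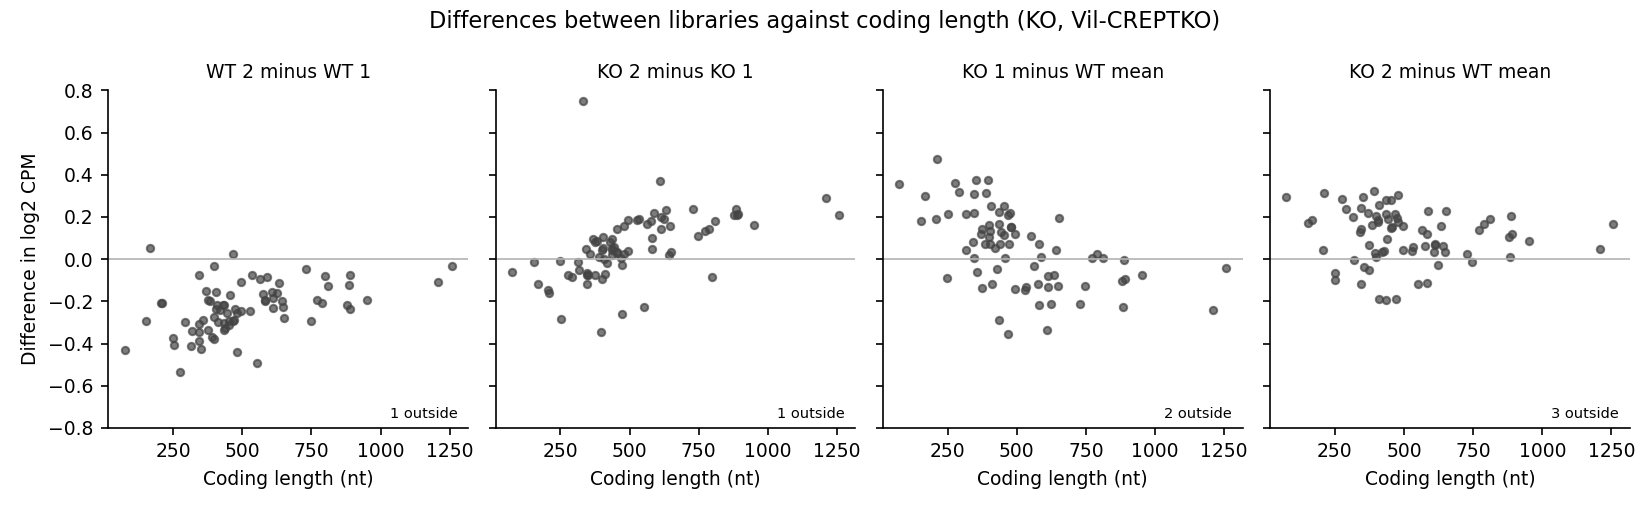
Differences in log2 CPM between libraries against the coding length (nt) of the 77 members, with KO for Vil-CREPTKO. The slope is upward within WT and within KO, downward for KO 1 against the WT mean (rho -0.57) and slight for KO 2 (rho -0.15), and the number of points outside the axis is given in each panel.

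Other protein-coding genes of the same lengths were compared in the same way. The 501 other tested genes with a principal transcript of 799 nt or less stood at a median of 0.08 on the log2 scale, and the 12952 longer ones -0.01. In Vil-CREPTKO replicate 1 the short ones stood at 0.14 and in replicate 2 at 0.03, so that the gap between short and longer genes was again larger in replicate 1. Between the WT libraries they differed by -0.04, less than the short members. By this split the gap in the fold change, 0.08 against -0.01, was larger than that of the members (0.12 and 0.05). Split by coding length instead, the 1000 other genes at 453 nt or less stood at 0.020 and the 12453 longer ones at -0.0067, a smaller gap than that of the members (0.16 and 0.03). Those 1000 genes stood at 0.05 in Vil-CREPTKO replicate 1 and at -0.0040 in replicate 2, and the longer ones at -0.03 and 0.0064.

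The shortest and the longest members illustrate how far genes of like length differed. Among the 5 shortest, Rps29 (390 nt) had 762 and 791 CPM in WT against 957 and 882, with no overlap of the groups (log2 fold change 0.24, SE 0.179, adjusted p = 0.618, edgeR). Rps21 (394 nt) had 596 and 460 against 492 and 489 CPM (-0.11, SE 0.184), and Rps27, Rpl36 and Rps28 stood at 0.07, 0.19 and 0.11. Among the 5 with the longest principal transcript, Rps15a (5179 nt with a coding sequence of 390 nt) had 577 and 447 against 631 and 635 CPM (0.31, SE 0.186) and Rpl22 270 to 324 CPM (0.11, SE 0.155). Rps20, Rpl5 and Rpsa stood at -0.06, 0.02 and -0.11. Rps20 (3706 nt) and Rpl22 (2051 nt) had short coding sequences too, of 357 and 384 nt. The place of such genes among the longer members, and their CPM per kb, thus rest on which annotated transcript was taken. Rpl41, whose coding sequence of 75 nt is the shortest of all, stood at 0.31 (SE 0.227). None of these passed the test.

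Of 7 near matches outside the rule, none passed at an adjusted p under 0.05 by edgeR, and 3 had an unadjusted p under 0.05. Rpl7l1, a paralogue of Rpl7 with a part in ribosome assembly, had 85.2 and 85.7 CPM in WT against 57.8 and 61.6, with no overlap (log2 fold change -0.52, SE 0.112, adjusted p = 0.0518, edgeR; 0.0329 by DESeq2). Rpl22l1, the paralogue of Rpl22, had 56.1 and 51.7 against 34.9 and 41.6 CPM (-0.49, SE 0.133, adjusted p = 0.106). Rps27l, a paralogue of Rps27 known as a p53 target, had 183 and 169 against 246 and 223 CPM (0.41, SE 0.142, adjusted p = 0.209). Rps3a1, which encodes a standard protein of the small subunit but whose symbol the rule does not take, stood at 0.06, and Rack1, a scaffold on the small subunit, at -0.20 (SE 0.183). Rps27rt and Rpl36al had 0.35 (SE 0.195) and -0.20 (SE 0.351).

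The machinery around the ribosome was read from gene lists. No gene of the elongation and TOP list (18 tested), of eIF3 (13), of ribosome biogenesis (36), of RNA polymerase I (17) or of mTOR and TOP control (16) passed at an adjusted p under 0.05 by edgeR. Over all genes tested 0.423% were higher and 2.29% lower at that threshold. At an unadjusted p under 0.05 the counts were 1, 0, 5, 1 and 2, beside 14.3% of all genes. Their median log2 fold changes were 0.05, 0.06, 0.14, 0.10 and -0.06, beside -0.01 over all genes. Eef1a1, the elongation factor that brings tRNA to the ribosome, had 0.04 (SE 0.249), and Eef2, which moves the ribosome along, -0.16 (SE 0.221). Wdr12, which processes the precursor of the large-subunit RNA, had 1080 and 889 against 499 and 624 counts (-0.70, SE 0.162, adjusted p = 0.0665), and Mlst8, a subunit of the mTOR complexes, 831 and 903 against 477 and 529 counts (-0.67, SE 0.159, adjusted p = 0.0698). Fbl, Gar1, Mrto4 and Rrp12 of the biogenesis list also had an unadjusted p under 0.05 by edgeR, and were higher (0.38, 0.36, 0.37 and 0.30). So did Eif4ebp1 of the mTOR list, at 0.49. Fold changes were positive in 30 and negative in 6 biogenesis genes, and positive in 7 and negative in 9 of the mTOR list. The genes named from these 2 lists were chosen after their values were seen.

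Of 3 further gene groups, mitochondrial ribosomal proteins had 3 of 77 tested genes lower and none higher, with a median of 0.04. Mrpl17 had 1879 and 2048 against 622 and 656 counts (log2 fold change -1.50, SE 0.142, adjusted p = 0.00229, edgeR), and Mrps2 and Mrpl41 fell by 0.97 and 0.75 on the log2 scale. Nuclear respiratory chain genes had 2 of 83 lower (Ndufaf3 and Ndufaf8, both assembly factors of complex I) and a median of 0.18. The proteasome had none of 34 in either direction by edgeR, and a median of 0.14. At an unadjusted p under 0.05 the counts were 13 of 77, 14 of 83 and 1 of 34, beside 14.3% of all genes. All 8 lists together held 294 tested genes, of which 0 were higher and 5 lower, beside 0.423% and 2.29% of all genes.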

How the data were processed

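RNA-seq was done on 2 WT and 2 Vil-CREPTKO libraries of intestinal crypts, sequenced on BGISEQ. The deposited values are whole-number counts per gene, which the authors made by mapping clean reads to reference transcripts of GRCm38.p6 with Bowtie2 and RSEM, and the submitters' processing notes also name CASAVA 1.8. How reads that match several transcripts were divided, the strand setting and the versions of Bowtie2 and RSEM are not given in the sources used here. Without strand, reads of overlapping genes cannot be told apart.

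Genes were matched to GENCODE M21 by identifier (98.9% of rows). Low counts were removed with filterByExpr (17504 genes left), libraries were scaled by TMM, and groups were compared with the quasi-likelihood test of edgeR 4.0.16 (R 4.3.3), two-sided, with Benjamini-Hochberg adjustment over all genes tested. The SE is that of the log2 fold change as implied by the test statistic. Genes were counted as higher or lower at an adjusted p under 0.05, and the study's own thresholds add a change beyond 2-fold. The 2 libraries of a group differed by far more than sampling noise. The sources say that replicates were biological. On simulated counts of this comparison (16968 genes), 80% of 100 genes changed 2-fold and 100% of 100 changed 4-fold were recovered at an adjusted p under 0.05 with no minimum fold, with 13 false calls. The changed genes were drawn from those above a minimum level in WT, and recovery of rarer genes was not tested. Counts were drawn for each gene apart, with no shift shared by many genes of a library.

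Near-identical copies were annotated transcripts matching a member's coding sequence with blastn 2.17.0 at 95% identity or more over 80% or more of its length. The principal transcript was the best by APPRIS, then by RefSeq match, with later ties broken by annotation support and then by the greater length. Named members were those that passed, the 5 lowest and 5 highest fold changes, the 5 shortest and 5 longest, the 5 most abundant per kb and members of known roles. Results of 2 genes are not reported here. The members, lists and this rule were chosen with earlier results of these data known. Alternatives were DESeq2 1.42.0, other scalings and filters, glmTreat, a replicate block, each library left out, GC and length correction, other readings of the rule and other length splits. Adding all near-identical copies, and leaving out members with many shared reads, were chosen after seeing the data.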

Additional observations from a re-analysis of the deposited data

How the results depend on the processing

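The titles number the replicates 1 and 2 in both groups. Deviations of same-numbered libraries from their group means correlated at 0.0277 over genes, so the numbers were not taken to pair the samples. With the replicate block, 1 member passed (Rpl7a) and the median of the members was 0.10, beside 0.09 without it.

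Rpl7a passed in 16 of 17 alternatives, at 0.68 to 1.03 on the log2 scale, and not under glmTreat, where 0 members passed. Under glmTreat Rpl7a could not pass, since its estimate was below 2-fold. Rpl7a was dropped, leaving 0 members higher, by the rule as written and by leaving out members with many shared reads, both by construction. With near-identical copies added (1023 to 1993 counts for Rpl24, beside 27 to 36 of its own), members higher numbered 2, with Rpl24. Members higher also numbered 2 without the low-count filter, with Rpl35a. They numbered 1 to 2 when each library was left out. Members beyond 2-fold numbered 1 with upper-quartile scaling, 1 without the filter, and 0 to 2 when each library was left out. For the other changes the cause was not tested.

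Leaving out each library gave medians from 0.024 to 0.26 for short and from -0.068 to 0.14 for longer members, and the difference between them stayed between 0.07 and 0.14. WT replicate 2 left out gave the low end and WT replicate 1 the high end of both medians. Scaling by library size put the median of the members at -0.0022 and that of all genes at -0.10. In the other lists 5 genes were lower and 0 higher, against 8 lower with library-size scaling, 12 lower and 2 higher without the filter, 0 lower under glmTreat and 9 lower by DESeq2. Higher genes there numbered 0 to 1 when each library was left out.

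Of 43 named genes, 19 changed sign in some setting, all at adjusted p of 0.33 or more there. With library-size scaling the log2 values were -0.038 for Fau, -0.046 for Rpl10, -0.091 for Rpl36a, -0.071 for Rpl5, -0.088 for Rplp0, -0.0013 for Rplp1, -0.040 for Rps27, -0.036 for Rps3a1 and -0.00076 for Rps4x. With GC and length correction they were -0.13 for Rpl36a, -0.046 for Rpl5, 0.047 for Rps2 and -0.060 for Rps27. Rplp0 stood at -0.00022 with at least 10 counts in every library. Rps2 stood at 0.017 with RLE scaling, 0.029 with upper-quartile scaling, 0.00052 with scaling without the members and 0.015 by DESeq2. Leaving out each library gave ranges of -0.045 to 0.15 (Rpl10), -0.13 to 0.053 (Rpl11), -0.33 to 0.028 (Rpl13a), -0.00033 to 0.41 (Rpl36), -0.15 to 0.19 (Rpl36a), -0.088 to 0.12 (Rpl5), -0.089 to 0.10 (Rplp0), -0.049 to 0.26 (Rplp1), -0.10 to 0.11 (Rps2), -0.19 to 0.096 (Rps20), -0.28 to 0.090 (Rps21), -0.12 to 0.28 (Rps27), -0.35 to 0.84 (Rps27a), -0.21 to 0.024 (Rps3), -0.032 to 0.15 (Rps3a1), -0.0062 to 0.20 (Rps4x), -0.21 to 0.076 (Rps6) and -0.23 to 0.0050 (Rpsa).

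With 2 libraries a group and a median SE of 0.178, differences of the size seen in most members could not be told from 0, which does not show that they were equal.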
